A study of Mus musculus with 6 samples.

Results

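Caseins and other milk proteins were examined as a set of 10 genes, each found as a separate entry among the 37755 entries of the expression table. They were found in the table by their symbols, and the rule for membership uses no measured value. The set holds 5 caseins (*Csn1s1*, *Csn1s2a*, *Csn1s2b*, *Csn2*, *Csn3*), the whey proteins *Wap*, *Lalba* and *Glycam1*, and *Btn1a1* and *Xdh*, whose products form the membrane of the milk fat globule.

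RNA-seq compared cultures of primary mammary epithelial cells (MEC 1, 2 and 3) with breast tumor cell lines (MEKO lines 199, 233 and 336), with 1 library from each of the 6. MEC carried the *WAPCre* transgene with intact JNK genes, came from virgin females aged 10 to 12 weeks that were pooled in groups of 3 to 5, and were harvested as primary cultures on collagen I in medium with serum, EGF and insulin. The MEKO lines carried the same transgene with deletion of *Mapk8* and *Mapk9*, which encode JNK1 and JNK2. They were grown from mammary tumors that arose after pregnancy, spent 2 passages on collagen I, and were then kept on plastic in medium with serum. All animals were of the C57/Bl6J strain. The *Wap* promoter that drives Cre is itself a milk protein promoter and acts in luminal cells during lactation. Parity and age of the donors, JNK genotype, tumor origin, medium and time in culture all change together between the groups. Their parts in any difference therefore cannot be told apart.

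Milk proteins are made by the secretory luminal cells of the alveoli, which differentiate during pregnancy. Prolactin acts through its receptor and JAK2 on STAT5, which binds casein gene promoters together with the glucocorticoid receptor, and the transcription factor ELF5 is needed for the same program. Caseins assemble into micelles that carry calcium, and κ-casein, the product of *Csn3*, covers the micelle and keeps it in solution. Low levels of some milk protein transcripts are known in the luminal cells of virgin glands.

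Of the 10 genes, only *Csn3* was abundant in MEC, and in the MEKO lines it was close to the lower limit of measurement. *Csn1s1* and *Lalba* were low in MEC and at or near 0 in the lines. *Btn1a1* and *Xdh* were expressed in both groups. *Csn1s2a*, *Csn1s2b* and *Glycam1* were barely detected, and *Csn2* and *Wap* were listed at 0 in all 6 libraries.

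**Figure D1:**
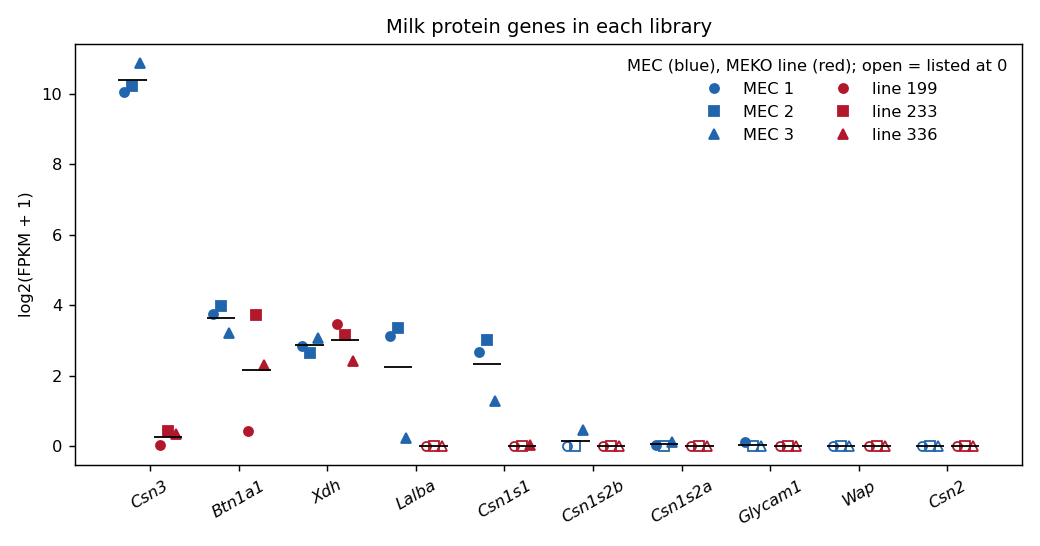
Expression of the 10 milk protein genes as log2(FPKM + 1), ordered by their MEC mean, with 1 symbol per library and a black line at the mean of each group on this scale. *Csn3* lies between 1068 and 1871 FPKM in MEC and under 1 FPKM in each MEKO line, while *Btn1a1* and *Xdh* overlap between the groups and open symbols mark values listed at 0.

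The 5 casein genes lie together on mouse chromosome 5 (GRCm38). From the proximal end they are *Csn1s1* (87666208 to 87682578), *Csn2* (87692624 to 87699630, on the opposite strand to the others), *Csn1s2a* (87774567 to 87788797), *Csn1s2b* (87808082 to 87824426) and *Csn3* (87925579 to 87932665). *Wap* is on chromosome 11 (6635482 to 6638637), *Lalba* (98480400 to 98482721) and *Glycam1* (103562759 to 103565081) are on chromosome 15, *Btn1a1* is on chromosome 13 (23456992 to 23465901) and *Xdh* is on chromosome 17 (73883895 to 73950196). Each is annotated as a protein-coding gene. *Csn3* is overlapped by a noncoding gene on the other strand, *1700066N21Rik*. The strand of the reads is not given in the sources used here, so reads from this pair could not be told apart. Transcripts of 2 other genes share stretches of 121 to 142 bases with those of *Csn3* at 95% identity or more.

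Promoter sequences were available for 6 of the 10 genes, but not for *Csn3*, *Csn1s2b*, *Btn1a1* or *Xdh*. They run from 250 bases before to 50 bases after the start of the gene in RefSeq (GRCm38.p6). They are shown for 3 that bear on the pattern of expression, namely the neighbors *Csn1s1* and *Csn2*, of which only the former had values above 0, and *Lalba*, which followed *Csn1s1* across the libraries. Capitals mark the motif TTCNNNGAA, the consensus to which STAT5 binds, which reads the same on both strands. The *Csn1s1* promoter (chr5:87665958-87666257, plus strand), the *Csn2* promoter (chr5:87699376-87699675, minus strand) and the *Lalba* promoter (chr15:98482634-98482933, minus strand) read as follows.
Csn1s1: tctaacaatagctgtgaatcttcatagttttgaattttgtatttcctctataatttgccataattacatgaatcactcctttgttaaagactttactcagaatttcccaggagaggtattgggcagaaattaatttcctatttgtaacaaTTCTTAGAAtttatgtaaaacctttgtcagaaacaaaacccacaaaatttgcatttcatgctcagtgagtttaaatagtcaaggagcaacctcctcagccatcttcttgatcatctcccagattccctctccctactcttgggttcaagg
Csn2: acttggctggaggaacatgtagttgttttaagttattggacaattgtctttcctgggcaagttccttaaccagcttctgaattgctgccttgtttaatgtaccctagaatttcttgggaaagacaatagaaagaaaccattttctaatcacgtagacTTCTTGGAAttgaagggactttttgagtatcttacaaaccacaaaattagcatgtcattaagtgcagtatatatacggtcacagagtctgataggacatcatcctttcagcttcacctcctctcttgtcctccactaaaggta
Lalba: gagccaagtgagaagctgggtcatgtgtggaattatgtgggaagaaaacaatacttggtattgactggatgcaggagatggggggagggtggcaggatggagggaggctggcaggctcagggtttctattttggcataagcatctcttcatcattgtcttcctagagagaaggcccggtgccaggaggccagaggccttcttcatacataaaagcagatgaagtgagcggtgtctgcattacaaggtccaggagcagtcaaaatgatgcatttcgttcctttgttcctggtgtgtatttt

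The motif begins 100 bases before the start in *Csn1s1*, where it reads TTCTTAGAA, and 93 bases before the start in *Csn2*, where it reads TTCTTGGAA. *Glycam1* holds it 145 bases before the start and *Csn1s2a* 20 bases after it. These places are counted from the RefSeq start. In *Csn2*, *Csn1s2a*, *Lalba* and *Wap* it differs from the GENCODE start used for the positions above. By GENCODE, the *Csn1s2a* window ends at 87774499, before the gene starts at 87774567, so its motif lies before the gene. The *Csn2* motif lies inside the gene, which by GENCODE extends to 87699630. No match was found in the *Lalba* and *Wap* windows. Thus 4 of the 6 promoters held the motif, against 8.30% of the 32851 promoters in the table. A match describes these letters alone. *Csn1s1* and *Csn2* both hold one, and a link between the motif and expression was not tested.

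Expression is given as FPKM, the number of sequenced fragments scaled to the length of the transcript and the size of the library, which allows levels to be compared between genes. Differences between groups were tested with limma on log2(FPKM + 1) for every entry with a mean of at least 1 FPKM over the 6 libraries, and p-values were adjusted over all of them by the Benjamini-Hochberg method. An entry was called where the adjusted p was under 0.05 and the log2 fold change passed 0.75 in size. Of 12461 tested entries, 7.26% were called lower in the MEKO lines and 2.64% were called higher. In 18.7% the values of the 3 lines all lay below those of the 3 MEC libraries.

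*Csn3* had 1068, 1184 and 1871 FPKM in MEC 1, 2 and 3. It had 0.0209, 0.339 and 0.282 FPKM in lines 199, 233 and 336. The groups lay far apart, and the lowest MEC value was 3153-fold above the highest value of a line. On the log2(FPKM + 1) scale the difference was -10.11 (standard error 0.25, limma adjusted p = 4.49e-05), the largest decrease among all tested entries. The exact permutation test (two-sided) gave p = 0.1, the smallest value that 3 libraries against 3 allow. Ranked by FPKM within a library, *Csn3* stood at place 61 in MEC 1, 47 in MEC 2 and 18 in MEC 3. It alone made up 0.167%, 0.209% and 0.322% of the summed FPKM of these libraries.

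*Csn1s1*, which encodes αS1-casein, had 5.38, 7.04 and 1.42 FPKM in MEC 1, 2 and 3. It was listed at 0 in lines 199 and 233 and had 0.0305 FPKM in line 336. All 3 MEC libraries lay above all 3 lines, and MEC 3 was the lowest of its group. The difference on the log2(FPKM + 1) scale was -2.30 (standard error 0.47, limma adjusted p = 0.0308), and the exact permutation test gave p = 0.1. Since the lines were at or near 0, its size depends on the pseudocount, and it was -5.16 with a pseudocount of 0.1. The call was lost with quantile normalization (limma adjusted p = 0.0513) and without MEC 1, MEC 2, line 233 or line 336 (limma adjusted p = 0.134, 0.112, 0.0706 and 0.0673).

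The remaining caseins contributed little. *Csn1s2a* had 0.0284 FPKM in MEC 1 and 0.0891 FPKM in MEC 3 and was listed at 0 in the other 4 libraries. *Csn1s2b* had 0.372 FPKM in MEC 3 and was listed at 0 elsewhere. *Csn2*, which encodes β-casein, a major casein of mouse milk, was listed at 0 in every library, including the 3 in which *Csn3* was abundant. An exact 0 in such a table can be a failed estimate, so no more is said of *Csn2* and *Wap* than that they are listed at 0. None of 30 genes that every cell uses was at 0 in any library. In MEC, *Csn3* held 99.5%, 99.4% and 99.9% of the summed FPKM of the 5 caseins.

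Expression in MEC thus differed widely between genes of 1 cluster. The nearest protein-coding genes were examined to see how far the signal reached. *Sult1d1* and *Sult1e1*, which encode sulfotransferases and precede *Csn1s1*, had at most 0.0596 FPKM in any library. *Prr27*, between *Csn1s2b* and *Csn3*, was listed at 0 throughout under its older name, *4930432K09Rik*. *Odam*, the gene before *Csn3*, had 0.0566, 0.107 and 0.524 FPKM in MEC 1, 2 and 3, and at most 0.0173 FPKM in the lines. Beyond *Csn3*, *2310003L06Rik* was listed at 0 in all 6 libraries, and *Gm28434* was not matched to an entry. Of 7 tested genes of the wider neighborhood, 1 was called lower, against 7.26% of all tested entries. This was *Amtn*, which encodes the enamel protein amelotin. It reached the filter on the mean only through MEC, so the test could hardly find it anywhere but lower. *Amtn* had 3.41, 2.17 and 0.903 FPKM in MEC and was listed at 0 in every line (limma adjusted p = 0.0424), and its call was lost without line 199, 233 or 336 (limma adjusted p = 0.0529, 0.0837 and 0.0819). The median difference of these 7 was 0.42 on the log2 scale, against 0.01 over all tested entries.

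**Figure D2:**
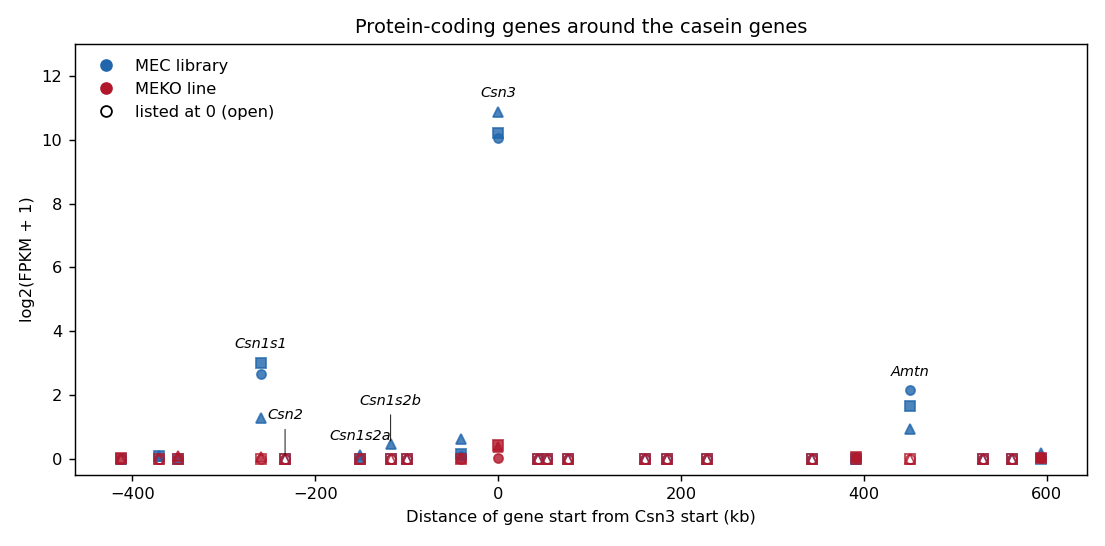
Expression as log2(FPKM + 1) of protein-coding genes around the caseins against the distance of their start from that of *Csn3* in kilobases, with blue symbols for MEC, red symbols for MEKO lines and open symbols for values listed at 0. Of the genes drawn, *Csn3*, *Csn1s1* and *Amtn* pass 1 FPKM, and they do so in MEC alone.

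*Lalba* encodes α-lactalbumin, which joins the galactosyltransferase *B4galt1* to form lactose synthase. It had 7.67 and 9.24 FPKM in MEC 1 and MEC 2 but 0.180 FPKM in MEC 3, and it was listed at 0 in all 3 lines. The groups did not overlap, although MEC 3 stood 51.2-fold below MEC 2. The difference on the log2(FPKM + 1) scale was -2.24 (standard error 0.82) and did not pass the test (limma adjusted p = 0.139, exact permutation p = 0.1). MEC 3 decided this outcome. Without it the difference was -3.24 (limma adjusted p = 0.00751), and with library weights, which let limma count variable libraries less, it was -3.06 (limma adjusted p = 0.0302).

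*Glycam1* encodes a mucin-like protein of whey. It had 0.0858 FPKM in MEC 1 and was listed at 0 in the other 5 libraries. *Wap*, which encodes whey acidic protein, was listed at 0 in MEC and in the lines alike, although Cre under its promoter had acted in the mammary epithelium from which the lines arose. *Mapk8* ranged from 19.2 to 25.1 FPKM in MEC and from 1.37 to 5.93 FPKM in the lines, and *Mapk9* from 21.5 to 24.4 and from 3.07 to 7.62 FPKM, so both genes targeted by Cre were lower in each line (limma adjusted p = 0.0146 and 0.0122).

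*Btn1a1* encodes butyrophilin, a membrane protein that takes part in the release of milk fat droplets. It had 12.5, 14.6 and 8.34 FPKM in MEC 1, 2 and 3. It had 0.361, 12.3 and 3.90 FPKM in lines 199, 233 and 336. Line 233 lay within the range of MEC, at 104% of the MEC mean, whereas line 199 kept 3.05% and line 336 kept 33.0%. The mean was 11.8 ± 3.20 FPKM in MEC and 5.50 ± 6.11 FPKM in the lines (SD, n = 3). The difference on the log2(FPKM + 1) scale was -1.49 (standard error 0.78) and did not pass the test (limma adjusted p = 0.265, exact permutation p = 0.2). Without line 199 it was -0.64 and without line 233 it was -2.28 (limma adjusted p = 0.392 and 0.0777).

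*Xdh* encodes xanthine dehydrogenase/oxidase, an enzyme of purine breakdown in many tissues that also binds butyrophilin in the milk fat globule membrane. It had 6.21, 5.30 and 7.43 FPKM in MEC 1, 2 and 3. It had 10.1, 7.99 and 4.31 FPKM in lines 199, 233 and 336. The lines spread to both sides of MEC, and their order was not that of *Btn1a1*. The difference on the log2(FPKM + 1) scale was 0.16 (standard error 0.30, limma adjusted p = 0.766, exact permutation p = 0.7), and without line 199 it was -0.07. Transcripts of *Xdh* share stretches of 114 to 463 bases at 95% identity or more with those of 31 other genes, so some of its reads may belong elsewhere.

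**Figure D3:**
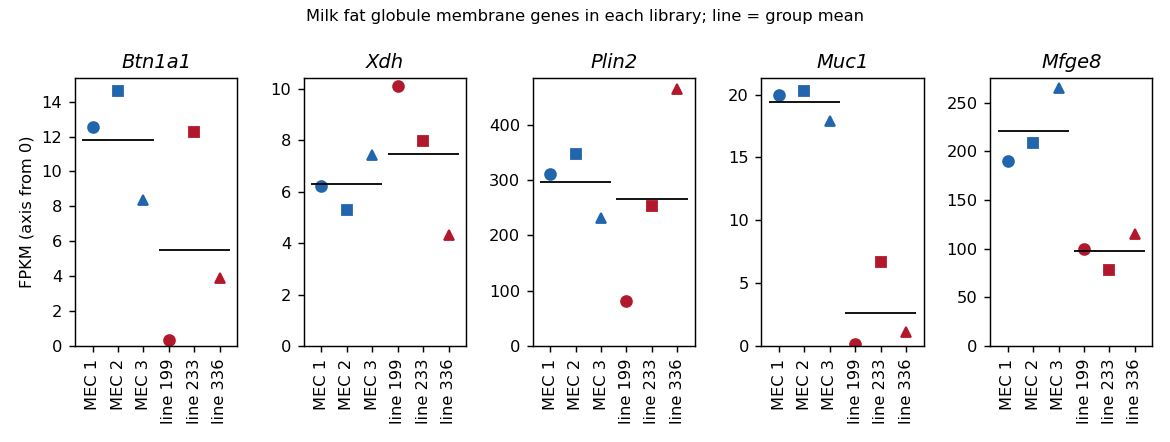
FPKM of 5 genes of the milk fat globule membrane in each library on linear axes from 0, with blue symbols for MEC, red symbols for MEKO lines and a line at each group mean. *Btn1a1* and *Muc1* are highest in line 233 and lowest in line 199 among the lines, *Xdh* and *Plin2* overlap between the groups, and *Mfge8* is lower in every line.

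Over the whole set, 5 of the 10 genes passed the filter on the mean, and 2 of these, *Csn3* and *Csn1s1*, were called lower, against 7.26% of all tested entries. None was called higher, and *Lalba*, *Btn1a1* and *Xdh* did not pass. *Csn3*, *Csn1s1* and *Lalba* reached the filter only through MEC, where they were high, so the test could hardly find them anywhere but lower, and the count says nothing of the set as a whole. The 5 genes that did not reach it had at most 0.372 FPKM in any library. The groups did not overlap for *Csn3*, *Csn1s1* and *Lalba*, against 18.7% of all tested entries in this direction. The 10 genes together summed to 1099, 1220 and 1889 FPKM in MEC 1, 2 and 3, and to 10.5, 20.6 and 8.53 FPKM in lines 199, 233 and 336. Without *Csn3* these sums were 31.9, 36.2 and 17.8 FPKM in MEC and 10.5, 20.2 and 8.24 FPKM in the lines, where *Btn1a1* and *Xdh* made up nearly all of the signal.

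In order of level in MEC, *Csn3* came first by a wide margin, and its lowest library lay above the highest of any other gene of the set. *Btn1a1*, at 11.8 ± 3.20 FPKM (SD, n = 3), lay above *Xdh*, at 6.32 ± 1.07 FPKM, in each of the 3 libraries. *Xdh*, *Lalba* (5.70 ± 4.84 FPKM) and *Csn1s1* (4.61 ± 2.88 FPKM) did not differ beyond their spread. In the lines the order was different, with *Xdh* at 7.47 ± 2.94 FPKM and *Btn1a1* at 5.50 ± 6.11 FPKM, which also overlapped, followed by *Csn3* at 0.214 ± 0.169 FPKM.

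The MEC libraries did not rank alike for all genes. *Csn1s1*, *Lalba* and *Btn1a1* were highest in MEC 2 and lowest in MEC 3, whereas *Csn3* and *Xdh* were highest in MEC 3. The summed markers of some cell types, but not of all, moved with the former order. The summed FPKM of 7 endothelial markers, including *Pecam1* and *Cdh5*, was 23.2 in MEC 1, 26.6 in MEC 2 and 3.14 in MEC 3, and 0.209 to 2.26 in the lines. The sums of luminal markers (10097, 11865 and 7809 FPKM in MEC 1, 2 and 3), basal markers (3245, 3783 and 2027 FPKM) and fibroblast markers (136, 192 and 99.3 FPKM) had the same order. The sums of hormone-sensing luminal markers (314, 319 and 379 FPKM) and leukocyte markers (22.4, 27.1 and 43.3 FPKM) were highest in MEC 3. Those of luminal progenitor and alveolar markers (1757, 2350 and 2304 FPKM) and adipocyte markers (60.5, 64.1 and 60.8 FPKM) were lowest in MEC 1. Single genes carried much of these sums. *Ly6a* had 236, 225 and 314 FPKM of the hormone-sensing sum in MEC 1, 2 and 3. *Wfdc18* had 947, 1275 and 1633 FPKM of the luminal progenitor and alveolar sum. Other genes of both lists, such as *Areg* and *Ltf*, were lowest in MEC 3, so the sums do not stand for every marker. The part of these cell types in the result was not tested. Without MEC 3, as given above, *Lalba* was called lower. Among 8 adipocyte markers, *Fabp4* followed the order of *Lalba*, with 7.74, 11.7 and 1.28 FPKM in MEC 1, 2 and 3 and 0.0898 to 1.12 FPKM in the lines. *Pnpla2* had 52.4 to 59.4 FPKM in MEC and 37.5 to 80.1 FPKM in the lines. The defining marker *Plin1* was listed at 0 in every library, and *Adipoq* was listed at 0 in every MEC library.

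The cell type labels were checked against markers. MEC expressed both luminal and basal keratins, with *Krt8* at 1844 to 3406 FPKM and *Krt5* at 201 to 435 FPKM. In the lines *Krt8* was lower, at 230.1 to 539 FPKM. Of 13 tested luminal markers, 5 were called lower (*Krt19*, *Muc1*, *Krt8*, *Epcam* and *Cdh1*), against 7.26% of all tested entries. The summed FPKM of all 13 was 7809 to 11865 in MEC and 1596 to 4029 in the lines, and 2 to 6 were called with each library left out. *Krt8* lost its call without MEC 1 or 2 (limma adjusted p = 0.0561 and 0.0528), and *Epcam* without MEC 1, 2 or 3 (0.0748, 0.0704 and 0.0670). Markers of luminal progenitors and alveolar cells, the cells that give rise to milk secretion, were examined too. Of these, 8 of 10 were called lower, against 7.26% of all tested entries, and none higher. Their sum was 1757 to 2350 FPKM in MEC and 165 to 493 FPKM in the lines. *Cxcl1* went the other way, with 7.41 to 38.1 FPKM in MEC and 46.3 to 354 FPKM in the lines. It did not pass the test (limma adjusted p = 0.164), and its highest value was in line 199, where the sum was 493 FPKM. With each library left out, 4 to 8 of the 10 were called. They include *Wfdc18*, *Elf5*, *Ltf*, *Aldh1a3*, *Kit*, *Cd14* and *Mfge8*, some of which are also milk proteins counted again below. *Elf5* and *Kit* were under 1 FPKM in every line and reached the filter on the mean only through MEC. The test could hardly find these genes anywhere but lower. In bulk RNA, fewer cells of a type and less RNA per cell cannot be told apart.

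Markers of other cell types were also called in part. Calls were made, all of them lower, for 3 of 6 tested markers of hormone-sensing luminal cells (*Prom1*, *Pgr* and *Foxa1*), 3 of 11 of basal cells (*Myh11*, *Oxtr* and *Mylk*), 1 of 5 of fibroblasts (*Dcn*) and 1 of 3 of leukocytes (*Lyz2*). Of all tested entries, 7.26% were called lower. *Prom1*, *Pgr*, *Myh11*, *Oxtr*, *Mylk*, *Dcn* and *Lyz2* were under 1 FPKM in every line and reached the filter only through MEC. The test could hardly find them anywhere but lower, so these counts say nothing of the cell types as a whole. The other 3 hormone-sensing markers, *Esr1*, *Ly6a* and *Areg*, overlapped between the groups, with log2 fold changes of -0.0235, -0.0070 and 1.21. The summed hormone-sensing markers were 314 to 379 FPKM in MEC and 309 to 442 FPKM in the lines. Of this, *Ly6a* alone had 225 to 314 FPKM in MEC and 132 to 416 FPKM in the lines. By limma, 0 of 4 endothelial and 0 of 2 adipocyte markers were called, and 3 and 1 of these had an unadjusted p under 0.05. The call of *Foxa1* was lost without MEC 1, MEC 2 or line 233 (limma adjusted p = 0.0919, 0.0823 and 0.0516), that of *Oxtr* without MEC 1, MEC 2, line 233 or line 336 (0.0639, 0.0592, 0.0554 and 0.0559), and that of *Dcn* without MEC 1 or MEC 2 (0.0588 and 0.0557). Without MEC 3, the library with the lowest endothelial signal, all 4 endothelial markers were called lower. All 4 had a mean under 1 FPKM in the lines, so they too reached the filter only through MEC. Without line 199, 9 basal and 4 fibroblast markers were called lower. The summed basal markers were 2027 to 3783 FPKM in MEC, 2558 FPKM in line 199, and 98.0 and 81.6 FPKM in lines 233 and 336. The sum in line 199 was carried by *Acta2*, *Krt5*, *Krt14* and *Krt17*, at 719, 608, 521 and 394 FPKM, whereas *Myh11*, *Oxtr* and *Mylk* were at 0.0812, 0.0125 and 0.714 FPKM. The summed fibroblast markers were 99.3 to 192 FPKM in MEC, 1100 FPKM in line 199, and 2.42 and 4.22 FPKM in lines 233 and 336. *Col1a1* and *Col1a2* had 600 and 408 FPKM in line 199, against 44.2 to 74.7 and 28.7 to 39.3 FPKM in MEC. *Dcn* had 0.311 FPKM in line 199, against 3.29 to 6.62 FPKM in MEC. Line 199 had the lowest *Csn3* and *Btn1a1* of the lines. The part of these cell types in the milk protein values was not tested.

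The factors that carry the lactogenic signal were examined next. Of 26 listed genes, 24 were tested, 6 were called lower, 1 was called higher and 17 did not pass. Over all tested entries, 7.26% were called lower and 2.64% higher. *Elf5* and *Sox10* were under 1 FPKM in every line and reached the filter only through MEC. The test could hardly find these genes anywhere but lower. The median difference of the list was -0.40, against 0.01 over all entries. Without MEC 1, 2 or 3, 4 genes were called lower and 0 higher. Without 1 of the lines, 5 to 9 were called lower and 1 or 2 higher. *Elf5* had 31.5, 32.8 and 44.3 FPKM in MEC and 0.0199, 0 and 0.461 FPKM in lines 199, 233 and 336 (limma adjusted p = 0.000645). Like *Csn3*, it was under 1 FPKM in each line and was highest in MEC 3. *Stat5a* had 9.40 to 12.6 FPKM in MEC and 2.15 to 3.03 FPKM in the lines, which gave a difference of -1.72 ± 0.19 (standard error) on the log2 scale (limma adjusted p = 0.00484). *Stat5b* fell from 10.7 to 11.4 FPKM in MEC to 4.50 to 6.78 FPKM in the lines (-0.91 on the log2 scale, limma adjusted p = 0.0314). The call of *Stat5b* was lost without MEC 1, 2 or 3 or line 233 or 336 (limma adjusted p = 0.140, 0.132, 0.103, 0.0710 and 0.0642).

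*Sox10* and *Tfap2c*, transcription factors of mammary epithelium, were also called lower, with log2 fold changes of -5.55 and -2.20. So was *Gata3*, a factor of the luminal lineage (-2.53), whose entry is joined with *9230102O04Rik* and may hold reads of both. *Igf1r*, the receptor for insulin-like growth factor, was called higher, with a log2 fold change of 0.93. The calls of *Gata3* and *Igf1r* were each lost without any 1 of the MEC libraries (limma adjusted p = 0.128 to 0.158 for *Gata3* and 0.0846 to 0.103 for *Igf1r*), and also without line 233 for *Gata3* (0.0919) and without line 336 for *Igf1r* (0.0534). *Prlr*, the prolactin receptor, shares its entry with *Agxt2* and *Gm21973*. This entry had 1.64 to 2.00 FPKM in MEC and 0 to 0.232 FPKM in the lines and fell below the filter on the mean.

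Not every component of the pathway was called lower. *Nr3c1*, the glucocorticoid receptor, had 8.22 to 10.3 FPKM in MEC and 10.5 to 17.9 FPKM in the lines (limma adjusted p = 0.220). *Cish*, a STAT5 target that inhibits cytokine receptors, had 4.29 to 6.60 FPKM in MEC and 3.58 to 7.69 FPKM in the lines (limma adjusted p = 0.840). *Socs2*, of the same family, had 22.2 to 30.7 FPKM in MEC and 15.7, 4.78 and 95.6 FPKM in lines 199, 233 and 336 (limma adjusted p = 0.864). None of these differences passed the test. *Nr3c1* was above MEC in each line, and the groups overlapped for *Cish* and *Socs2*.

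Other secreted proteins of milk and alveolar cells were examined in the same way. Of 23 listed genes, 19 were tested, 11 were called lower, against 7.26% of all tested entries, none was called higher and 8 did not pass. The median difference was -2.47. In 15 of the 19 the difference was below 0, and in 4 it was above 0. *Slpi* (104 to 172 FPKM in MEC, 178 to 343 FPKM in the lines) and *Wfdc2* (360 to 419 and 467 to 556 FPKM) were above MEC in each line. *Spp1* had 101 to 194 FPKM in MEC and 58.3, 734 and 675 FPKM in lines 199, 233 and 336. None of these passed the test (limma adjusted p = 0.0985, 0.138 and 0.498). *Wfdc18*, which encodes a secreted protein with a WAP-type domain, had 947, 1275 and 1633 FPKM in MEC 1, 2 and 3 and 0.157, 0.0629 and 10.5 FPKM in the lines. *Clu* (log2 fold change -5.34), which encodes the secreted chaperone clusterin, and *Ltf* (-4.14), which encodes lactoferrin, followed. *Muc1* (-2.94), *Muc15* (-2.83) and *Cd14* (-2.72) completed the 6 largest decreases among the called genes. For *Muc15*, whose mean was 0.787 FPKM in the lines, the filter was reached only through MEC. *Lcn2*, which encodes lipocalin 2, had a difference of -4.10 that did not pass the test (limma adjusted p = 0.146). The mucins are part of the globule membrane, as is lactadherin, encoded by *Mfge8*, which kept 77.6 to 115 FPKM in the lines against 190 to 265 FPKM in MEC (-1.18 ± 0.21, standard error, on the log2 scale, limma adjusted p = 0.0200). *Muc1* had 0.168, 6.69 and 1.10 FPKM in lines 199, 233 and 336, the same order as *Btn1a1*. With a single MEC library left out, 4 to 6 genes of this list were called lower. Without MEC 1, 2 or 3, *Mfge8* (limma adjusted p = 0.0701 to 0.0827), *Muc1* (0.133 to 0.141) and *Cd14* (at least 0.112) were no longer called, and neither was *Ltf* without MEC 1 or MEC 2 (0.0748 and 0.0688). *Muc1* also lost its call without line 336 (0.0946), and *Cd14* without line 199 or 233 (0.0608 and 0.103).

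Calls among genes for the making of milk fat were lower only, and those among genes of lactose synthesis and ion transport went in both directions. Their shares are to be read against 7.26% of all tested entries called lower and 2.64% called higher. Of 27 genes of fat synthesis and droplet secretion, 22 were tested and 1 was called, *Srebf1*, a regulator of lipid synthesis, which was lower (log2 fold change -1.34). *Plin2*, which coats the droplet and binds butyrophilin with XDH, had 311, 346 and 232 FPKM in MEC 1, 2 and 3 and 80.8, 252 and 464 FPKM in lines 199, 233 and 336 (limma adjusted p = 0.649). Of 29 genes of lactose synthesis and ion transport, 25 were tested, 2 were called lower and 2 higher. The lower ones included *Slc12a2*, a sodium, potassium and chloride transporter (-1.74). The higher ones were *Aqp3*, a water channel (3.20), and *Hk2*, a hexokinase (0.96). Of these, *Slc12a2* kept its call without any 1 library. *Srebf1*, *Aqp3* and *Hk2* lost theirs without MEC 1 (limma adjusted p = 0.103, 0.143 and 0.112), without MEC 2 (0.0971, 0.145 and 0.0752) and without MEC 3 (0.108, 0.155 and 0.0726). Calls were also lost without line 199 for *Aqp3* (0.0764), without line 233 for *Hk2* (0.0641), and without line 336 for *Aqp3* (0.0845) and *Hk2* (0.0508).

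*B4galt1*, the partner of α-lactalbumin, had 35.4 to 43.0 FPKM in MEC and 29.3 to 50.4 FPKM in the lines (-0.02 ± 0.22, standard error, on the log2 scale, limma adjusted p = 0.974). *Fam20c*, which encodes the kinase that phosphorylates caseins, had 3.55 to 3.91 FPKM in MEC and 12.9, 3.53 and 0.865 FPKM in lines 199, 233 and 336 (limma adjusted p = 0.974). The groups overlapped for both genes. The median difference was -0.11 for the fat genes and -0.02 for the lactose and transport genes.

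**Figure D4:**
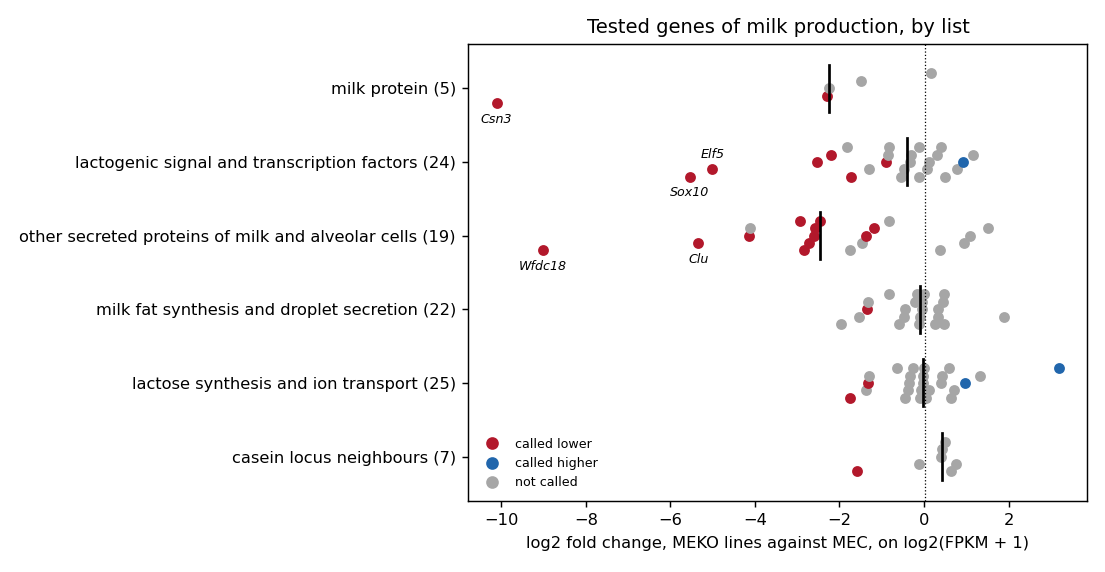
Log2 fold change of MEKO lines against MEC on the log2(FPKM + 1) scale for each tested gene of the milk proteins and of 5 further lists, with the number tested in parentheses, a black bar at the median of each list and a dotted line at the median of all tested entries. The median of the milk proteins, at -2.24, is over 5 genes, of which *Csn3*, *Csn1s1* and *Lalba* were tested only because they were high in MEC, while the other secreted proteins have a median of -2.47 and the fat and the lactose lists have medians near 0.

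The entries whose values over the 6 libraries were most like those of *Csn3* were found by the Euclidean distance between values of log2(FPKM + 1) centred on the mean of each gene. They were *Wfdc18* (distance 3.00), *Clca2* (4.13), the joined entry of *4930470G03Rik* and *Mir1896* (4.43), *Igfbp5* (4.56) and *Cytip* (4.58). The measure rests on 6 libraries in 2 groups and mostly picks large decreases. *Igfbp5*, which encodes a binding protein for insulin-like growth factors, and *Cytip* shared with *Csn3* the highest MEC value in MEC 3, at 244 and 157 FPKM, as did *Wfdc18*.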

How the data were processed

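RNA-seq libraries of 3 MEC preparations and 3 MEKO lines were compared, with groups and line numbers taken from the sample titles. The labels name no sequencing batch. Per the study, the preparations and the lines were separate from each other. The authors aligned paired reads of 150 bp to mm10 (GRCm38) with Bowtie2 and TopHat2 2.0.14, per the labels and the paper, and quantified genes with Cufflinks 2.2.1. The deposited table holds FPKM values of 37755 entries, and 2 of them have none. Entries were matched by symbol, with the highest mean kept where a symbol occurred repeatedly. For 3 genes of the lists an older symbol was used, and *Fdcsp* and *Muc10* were not matched. Among the other genes near the caseins, *Prr27* was also matched by an older symbol, and *Gm28434* was not matched. FPKM values hold no read numbers, so the depth is unknown, and ratios of values under 0.15 FPKM put the libraries at 0.92 to 1.30 times the depth of MEC 1. The summed FPKM of a library was 557991 to 638365.

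Differential expression was tested with limma 3.58.1 in R 4.3.3, with a mean-variance trend, and p-values were adjusted over 12461 entries. Single genes were also compared by an exact permutation test. The test was tried on simulated data before use. Positions come from GENCODE M21 and promoters from RefSeq, both on GRCm38, the build of the table.

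The 10 genes and all lists were chosen with earlier results of these data known. The text names the 10 genes, the called genes of each list (the 6 largest where more were called), genes next to the caseins, a fixed set of lactation genes, and the 5 entries most like *Csn3*. For 1 called gene of the lactose list the values are not reported here. *Krt5*, *Krt14*, *Krt17*, *Acta2*, *Pecam1*, *Cdh5*, *Plin1*, *Adipoq*, *Fabp4*, *Pnpla2* and *Lcn2* were added after their values were seen. So were *Cxcl1*, *Slpi*, *Wfdc2*, *Spp1*, *Esr1*, *Ly6a*, *Areg*, *Col1a1* and *Col1a2*. Alternatives were another pseudocount, filter, scaling, trend or weighting, summed entries, and each library left out.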

Additional observations from a re-analysis of the deposited data

How the results depend on the processing

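The call of *Csn3* was kept under all 15 alternatives, with differences from -12.26 to -9.71. The set of 10 genes had 2 calls. It had 1 with a filter at a mean of 5 FPKM, which *Csn1s1* does not reach, and 1 with quantile normalization, where the cause was not tested, and 1 to 3 with each library left out. Beyond the losses and gains given above for *Csn1s1* and *Lalba*, *Btn1a1* stayed below 0 and uncalled, and *Xdh* ranged from -0.0722, a reversal without line 199, to 0.46 with each library left out. The 1234 calls over all entries became 738 with the filter at 5 FPKM, where 9216 entries were tested, 1978 with library weights (cause not tested), and 259 to 1966 with each library left out. With quantile normalization 62.1% of calls were lower, against 73.3%. The 24 calls among the other lists became 9 to 29 with each library left out. All 24 genes kept their sign under each alternative that gave a value, and 9 kept their call. The number of genes with an exact permutation p of 0.1 was 3 on each scale. No paired analysis was possible because the lines have their own numbers, which pair them with no MEC preparation. Values under 1 FPKM rest on few fragments, so a low value and a value of 0 are hard to separate.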
